A study of Mus musculus with 8 samples.

Results

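Cytotoxic T cells kill through granules, and the genes described here make the contents and helpers of those granules together with the main death ligand of T cells. They are 10 genes chosen by name from 19505 measured genes: perforin (Prf1), 5 granzymes (Gzma, Gzmb, Gzmc, Gzmk and Gzmm), the granule proteoglycan serglycin (Srgn), the granzyme B inhibitor Serpinb9, the granule membrane protein Nkg7 and Fas ligand (Fasl). All 10 were matched by platform gene symbol, each by 1 probe set. The arrays were hybridised with RNA of CD4 and CD8 T cells together, taken from the spleens of 4 male wild-type C57BL/6 mice, isolated with a pan T cell kit. Cells of both groups were activated with beads bearing antibodies to CD3 and CD28, 1 bead to 1 cell. During the 48 h of activation the cells of 4 arrays were kept with the vehicle, phosphate-buffered saline (PBS), and those of 4 arrays with human beta-defensin-2 (hBD-2), a cationic antimicrobial peptide of epithelia, at 60 µL/mL, a volume that leaves its mass unknown. The mice's age and the mouse behind each array are not given in the labels used here.

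In a cytotoxic cell, perforin and granzymes are packed with serglycin into acidic secretory lysosomes. When the cell meets a target, these fuse with the membrane at the contact site, perforin opens pores in the target, and the granzymes, a family of serine proteases, pass in and cleave proteins that lead to cell death. Fas ligand kills by a separate route, by binding the death receptor Fas. Serpins made by the killer cell protect it from its own granzymes, and naive CD8 T cells hold little of this machinery until they are activated.

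Most of the set was lower in cells kept with hBD-2. Of the 10 genes, 7 fell, none rose and 3 did not pass, at a limma adjusted p under 0.05 over all 19505 genes. Over all genes, 4.46% passed, of which the falls made up 3.66% of all genes and the rises 0.8%. A fall of at least 1.5-fold was seen in 6 of the 10, against 1.59% of all genes, and 9 of the 10 had a log2 fold change below 0, against 46.1%. Perforin, Gzma, Gzmb, Gzmc, Gzmk, Serpinb9 and Nkg7 were the falling genes, and Gzmm, Srgn and Fasl did not pass. The median log2 fold change of the 10 genes was -0.77, against 0.02 over all genes. On all 4 hBD-2 arrays 7 of the 10 genes, the falling ones, lay below their lowest PBS value, where 9.36% of all genes did so. None of the 10 lay wholly above its highest PBS value, where 5.51% did. Values are log2 expression after robust multi-array averaging (RMA), and fold changes are hBD-2 minus PBS. Since the RNA came from a mixture of cells, fewer cells that express a gene and less of its RNA per cell cannot be told apart.

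**Figure D1:**
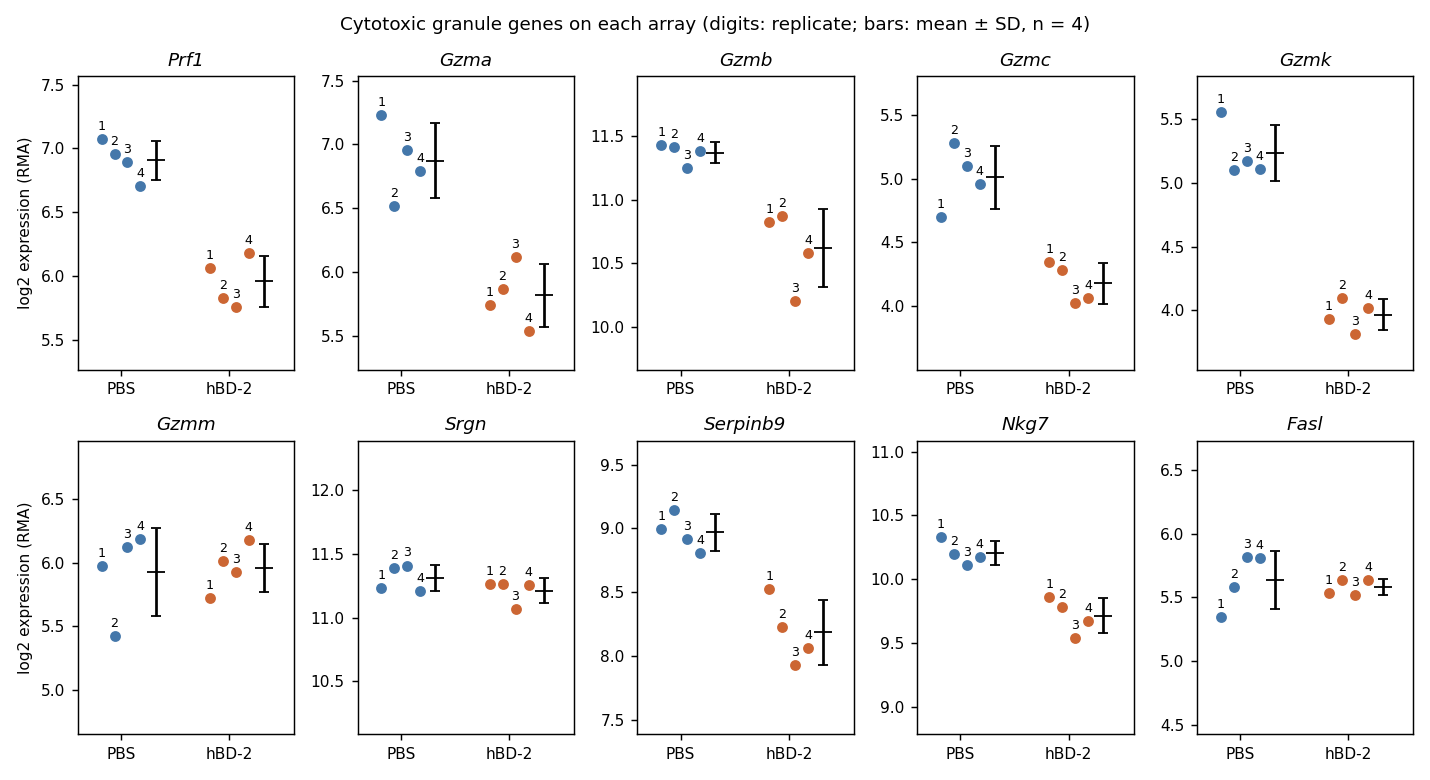
Log2 expression (RMA) of the 10 cytotoxic granule genes on each array, 1 panel a gene, with PBS arrays in blue and hBD-2 arrays in orange, digits for the replicate number and bars for mean ± SD (n = 4); every panel spans the same number of log2 units. In the panels of Prf1, Gzma, Gzmb, Gzmc, Gzmk, Serpinb9 and Nkg7 the orange points lie below all blue ones, and in those of Gzmm, Srgn and Fasl the groups overlap.

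The windows around the start sites of 5 falling genes are shown because they hold letters that factors of cytotoxic cells are known to bind. Gzmc and Serpinb9 fell and hold the RUNX letters as well but are not printed. Each is the RefSeq sequence of the build GRCm38.p6 from 250 bases before to 50 bases after the start, 5′ to 3′ on the gene's strand. Capitals mark TGTGGT, the core of the RUNX motif, or GGTGTGA, a T-box motif bound by T-bet and Eomes, on either strand.
Prf1 (chr10:61297586-61297885, plus strand): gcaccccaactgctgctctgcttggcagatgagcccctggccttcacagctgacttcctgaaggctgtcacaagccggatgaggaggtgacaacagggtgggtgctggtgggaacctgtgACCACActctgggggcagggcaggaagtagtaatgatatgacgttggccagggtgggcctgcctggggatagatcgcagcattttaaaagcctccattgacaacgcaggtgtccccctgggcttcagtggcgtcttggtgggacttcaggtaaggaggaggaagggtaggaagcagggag
Gzma (chr13:113100932-113101231, minus strand): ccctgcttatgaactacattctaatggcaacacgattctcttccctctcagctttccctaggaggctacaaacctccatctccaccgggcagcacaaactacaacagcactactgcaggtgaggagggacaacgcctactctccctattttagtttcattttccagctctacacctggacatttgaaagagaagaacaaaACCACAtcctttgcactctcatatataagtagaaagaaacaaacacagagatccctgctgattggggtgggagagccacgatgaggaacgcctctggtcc
Gzmb (chr14:56262285-56262584, minus strand): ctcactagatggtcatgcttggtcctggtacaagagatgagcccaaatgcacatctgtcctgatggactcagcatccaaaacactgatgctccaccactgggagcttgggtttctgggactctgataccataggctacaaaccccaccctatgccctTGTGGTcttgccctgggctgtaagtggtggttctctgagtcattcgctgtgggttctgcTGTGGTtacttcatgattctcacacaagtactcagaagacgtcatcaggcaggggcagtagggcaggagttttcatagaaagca
Gzmk (chr13:113180916-113181215, minus strand): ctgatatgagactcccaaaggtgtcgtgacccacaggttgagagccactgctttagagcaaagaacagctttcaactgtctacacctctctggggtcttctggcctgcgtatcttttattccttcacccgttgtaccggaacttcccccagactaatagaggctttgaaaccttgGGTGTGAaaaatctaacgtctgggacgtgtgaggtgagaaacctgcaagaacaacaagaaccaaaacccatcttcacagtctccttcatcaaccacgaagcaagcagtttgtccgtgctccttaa
Nkg7 (chr7:43436888-43437187, plus strand): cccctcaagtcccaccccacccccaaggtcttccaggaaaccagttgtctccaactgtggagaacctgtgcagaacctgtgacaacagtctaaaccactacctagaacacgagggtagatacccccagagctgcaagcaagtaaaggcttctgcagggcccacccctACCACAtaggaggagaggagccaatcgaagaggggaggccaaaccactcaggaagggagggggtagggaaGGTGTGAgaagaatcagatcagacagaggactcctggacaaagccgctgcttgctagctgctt
The RUNX letters stood in the windows of 6 of the 7 falling genes and of 2 of the 3 genes that did not pass, Gzmm and Srgn. They stood in 16.7% of 32544 windows of this length. The Gzmb window held them at 2 places, 93 and 34 bases before the start (first base), and the Prf1 window at 1 place, 130 bases before it. The T-box letters were found for Gzmk, Nkg7 and Gzmm, and in 3.95% of all windows. Their first base lay 75 bases before the start of Gzmk and 13 bases before that of Nkg7. Of the other motifs searched on both strands, TTCNNNGAA (STAT) stood in the windows of Gzmb, Nkg7 and Gzmm and in 8.33% of all windows, TGANTCA (AP-1) in that of Gzmb and in 7.79%, and GGAAAA (NFAT) in those of Fasl, Gzma, Gzmm, Serpinb9 and Srgn and in 23.3%. A match is a stretch of letters and not a measured site. Srgn and Gzmm have 2 windows each, and all 12 windows of the 10 genes were searched.

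Perforin, the pore-forming protein without which granzymes do not reach their substrates, fell 1.93-fold. Prf1 read 7.07, 6.96, 6.89 and 6.70 on PBS replicates 1 to 4 and 6.06, 5.83, 5.76 and 6.18 on hBD-2 replicates 1 to 4. All 4 hBD-2 arrays lay below the lowest PBS array, by at least 0.52 log2 units. The means were 6.91 ± 0.155 with PBS and 5.96 ± 0.198 with hBD-2 (difference -0.95 on the log2 scale, SE 0.12, limma adjusted p = 0.00168). Each single array could be left out without loss of the call (highest limma adjusted p = 0.00871).

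Gzma and Gzmk are tryptases, which cut after basic residues, and lie next to each other on chromosome 13. Gzmk had the largest fall of the set, 2.41-fold, and ranked 31 among all genes from the lowest log2 fold change upward. Gzmk read 5.56, 5.11, 5.17 and 5.11 on PBS replicates 1 to 4 and 3.94, 4.10, 3.81 and 4.02 on hBD-2 replicates 1 to 4. The groups were apart by 1.01 log2 units, the widest gap among the 10 genes. The means were 5.24 ± 0.217 with PBS and 3.97 ± 0.122 with hBD-2 (difference -1.27 on the log2 scale, SE 0.12, limma adjusted p = 0.000338). With hBD-2 the Gzmk values lay close to the arrays' lower quartiles, 3.68 to 3.85. Signals that dim can approach the floor, where a fold change may be understated, which was not tested. Gzma fell 2.08-fold. It read 7.23, 6.52, 6.95 and 6.79 on PBS replicates 1 to 4 and 5.74, 5.87, 6.12 and 5.54 on hBD-2 replicates 1 to 4, so that the values spread more within each group than those of Gzmk, but the groups did not overlap. The means were 6.87 ± 0.297 with PBS and 5.82 ± 0.244 with hBD-2 (difference -1.06 on the log2 scale, SE 0.159, limma adjusted p = 0.00451).

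Gzmb, the granzyme that cuts after aspartate and activates caspases, was the brightest granzyme probe set and fell 1.68-fold. It read 11.43, 11.41, 11.25 and 11.38 on PBS replicates 1 to 4 and 10.82, 10.87, 10.20 and 10.58 on hBD-2 replicates 1 to 4. The PBS arrays spanned 0.18 log2 units and the hBD-2 arrays 0.66, with hBD-2 replicate 3 lowest. The means were 11.37 ± 0.0829 with PBS and 10.62 ± 0.304 with hBD-2 (difference -0.75 on the log2 scale, SE 0.138, limma adjusted p = 0.0121). Without hBD-2 replicate 3 the log2 fold change was -0.61. Gzmc, which lies beside Gzmb on chromosome 14 in the mouse granzyme cluster, fell 1.78-fold. Gzmc read 4.70, 5.28, 5.10 and 4.96 on PBS replicates 1 to 4 and 4.34, 4.29, 4.02 and 4.06 on hBD-2 replicates 1 to 4. Again no hBD-2 array reached the lowest PBS array, and the means were 5.01 ± 0.246 with PBS and 4.18 ± 0.16 with hBD-2 (difference -0.83 on the log2 scale, SE 0.132, limma adjusted p = 0.00607). Its hBD-2 values were also near the lower quartiles.

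Gzmm, a granzyme that cuts after methionine or leucine and is encoded apart from the other granzymes on chromosome 10, did not follow. It read 5.98, 5.43, 6.12 and 6.18 on PBS replicates 1 to 4 and 5.72, 6.01, 5.93 and 6.18 on hBD-2 replicates 1 to 4. The lowest of all 8 values was on PBS replicate 2, and the groups overlapped. The means were 5.93 ± 0.344 with PBS and 5.96 ± 0.19 with hBD-2 (difference 0.03 on the log2 scale, SE 0.162, limma adjusted p = 0.936), and the 95% confidence interval of the log2 fold change, -0.32 to 0.38, allows a moderate change in either direction. The sign turned to -0.14 without PBS replicate 2, to -0.04 if hBD-2 replicate 4 was left out, to -0.06 if hBD-2 replicates 3 and 4 were, and to -0.07 relative to the CD8 markers. The difference between Gzmm and each of the falling granzymes was taken within arrays, a comparison added after the values were seen. From PBS to hBD-2 the log2 value of Gzmm minus that of Gzma rose by 1.09 (SE 0.229), minus Gzmb by 0.78 (SE 0.274), minus Gzmc by 0.86 (SE 0.306) and minus Gzmk by 1.30 (SE 0.207). All 4 hBD-2 arrays lay above all 4 PBS arrays in each of these differences (two-sided exact permutation, p = 0.0286 for each, the smallest that 4 arrays against 4 can give, and 0.0286 after Benjamini-Hochberg adjustment over 5 comparisons). Gzmm was set against granzymes already seen to fall without overlap, so this outcome was largely fixed by the choice of pairs. The p-values are therefore no independent evidence that Gzmm differed from them. Of further granzymes of the chromosome 14 cluster, 3 were measured and did not pass. Gzmf, Gzmg and Gzmn gave log2 fold changes of 0.02, -0.05 and 0.09, in that order (limma adjusted p = 0.947, 0.837 and 0.709). Gzmd and Gzme had no match and were not analysed. Gzmg lay below the lower quartile on every array, and means of Gzmf were 3.99 and 4.02, so a fall of Gzmf or Gzmg could not be well measured. Gzmn, at 4.89 with PBS and 4.98 with hBD-2, lay below the lower quartile on no array.

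Serglycin, the proteoglycan that holds perforin and granzymes in the granule core, did not pass. Srgn read 11.24, 11.39, 11.41 and 11.21 on PBS replicates 1 to 4 and 11.27, 11.26, 11.07 and 11.26 on hBD-2 replicates 1 to 4. The arrays overlapped, and 1 of 4 hBD-2 arrays, replicate 3, lay below the PBS range. The means were 11.31 ± 0.103 with PBS and 11.21 ± 0.0972 with hBD-2 (difference -0.10 on the log2 scale, SE 0.0943, limma adjusted p = 0.587), with a 95% confidence interval of -0.30 to 0.11 for the log2 fold change. The sign turned to 0.13 when medians and interquartile ranges of the arrays were set equal. Srgn was among the brightest genes on the arrays, at the percentile 99.4 of mean level, so its values were far from the floor.

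Serpinb9, the serpin that blocks granzyme B inside the cell that makes it, fell 1.72-fold. Serpinb9 read 8.998, 9.15, 8.92 and 8.81 on PBS replicates 1 to 4 and 8.52, 8.23, 7.93 and 8.06 on hBD-2 replicates 1 to 4. The means were 8.97 ± 0.142 with PBS and 8.19 ± 0.256 with hBD-2 (difference -0.78 on the log2 scale, SE 0.132, limma adjusted p = 0.00818), and the groups did not overlap. Nkg7, a granule membrane protein needed for efficient granule release, had the smallest fall that passed, 1.4-fold. Nkg7 read 10.33, 10.20, 10.11 and 10.17 on PBS replicates 1 to 4 and 9.86, 9.78, 9.54 and 9.67 on hBD-2 replicates 1 to 4. The means were 10.20 ± 0.0937 with PBS and 9.71 ± 0.139 with hBD-2 (difference -0.49 on the log2 scale, SE 0.0996, limma adjusted p = 0.0204). This call depended on single arrays. It was lost without PBS replicate 1, 2 or 4 (limma adjusted p = 0.0708, 0.0620 and 0.0566), without hBD-2 replicate 3 or 4 (0.0580 and 0.0627), and with equal medians and interquartile ranges (0.0613).

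Fas ligand, which kills without granule proteases, did not pass. Fasl read 5.34, 5.58, 5.81 and 5.81 on PBS replicates 1 to 4 and 5.54, 5.64, 5.52 and 5.64 on hBD-2 replicates 1 to 4. The 4 hBD-2 values lay inside the range of the PBS values, which was 0.47 log2 units wide. The means were 5.64 ± 0.224 with PBS and 5.58 ± 0.0641 with hBD-2 (difference -0.05 on the log2 scale, SE 0.115, limma adjusted p = 0.822; 95% confidence interval -0.31 to 0.20). The sign turned without PBS replicate 3 (0.0048) or 4 (0.0025). Compared within arrays, Fasl minus Prf1 rose by 0.89 (SE 0.205) from PBS to hBD-2, with all hBD-2 arrays above all PBS arrays (two-sided exact permutation, p = 0.0286, adjusted over the same 5 comparisons 0.0286). This pair too was picked after the values were seen. Prf1 alone separated the groups, so the difference mostly restates the fall of Prf1 and the p-value is no independent evidence.

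**Figure D2:**
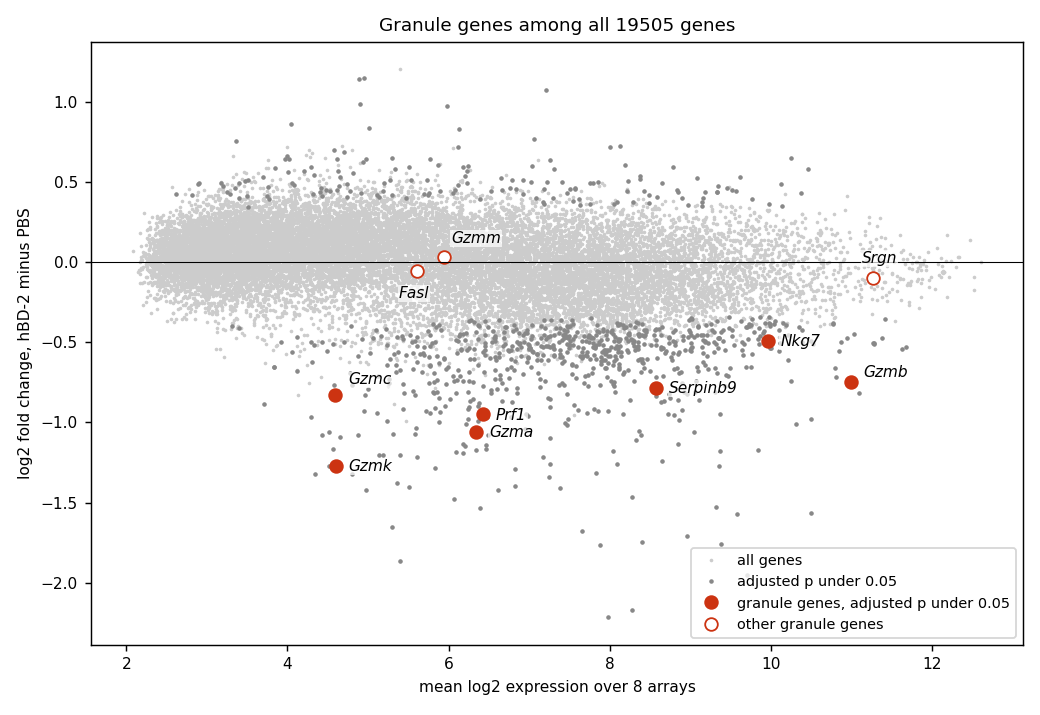
Log2 fold change (hBD-2 minus PBS) against mean log2 expression over the 8 arrays for all 19505 genes (light grey), those with a limma adjusted p under 0.05 (dark grey) and the 10 granule genes (red, filled where past the threshold). The falling granule genes range from the dim Gzmk and Gzmc to the bright Gzmb and Nkg7, while Srgn, Fasl and Gzmm lie near 0.

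Genes whose products load and mature granzymes were mostly lower too. Of 8 measured genes of granzyme sorting and processing, 6 fell and none rose, against 3.66% and 0.8% of all genes. Their median log2 fold change was -0.49. Cathepsin C (Ctsc), which removes the propeptide of granzymes, fell 1.45-fold, its mean going from 9.62 ± 0.00764 to 9.08 ± 0.227 (limma adjusted p = 0.0249). Cystatin F (Cst7), an inhibitor of cathepsin C, fell 1.39-fold (limma adjusted p = 0.0151). The mannose 6-phosphate receptors Igf2r and M6pr, which carry lysosomal enzymes and granzymes to lysosomes, fell 1.62-fold and 1.42-fold (limma adjusted p = 0.00552 and 0.0112). Calreticulin (Calr), a chaperone that also binds perforin, fell 1.41-fold, and the lymphocyte cathepsin Ctsw fell 1.37-fold (limma adjusted p = 0.0199 and 0.0288). Calr and Ctsw each kept the call in only 3 of the 8 omissions of a single array. Ctsw also lost it relative to the mean of Cd3d, Cd3e and Cd3g (limma adjusted p = 0.0568). Ctsl and Ctsh did not pass (log2 fold changes -0.21 and 0.30). Igf2r and M6pr kept the call without any single array. The count of 6 fell to 2 without PBS replicate 1, to 3 without replicate 2 or 4 of PBS or 4 of hBD-2, to 4 without hBD-2 replicate 3, to 3 with equal medians and interquartile ranges, and to 0 without hBD-2 replicates 3 and 4 together, where the median log2 fold change was -0.39.

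The machinery that moves and fuses granules was mostly not past the threshold. Of 19 measured genes 2 fell and none rose, against 3.66% and 0.8% of all genes, with a median log2 fold change of -0.12. Syntaxin 11 (Stx11), a fusion protein of cytotoxic granules, read 6.31, 6.26, 6.06 and 6.29 on PBS replicates 1 to 4 and 5.42, 5.80, 5.47 and 5.27 on hBD-2 replicates 1 to 4, a fall of 1.67-fold (limma adjusted p = 0.00687). Sytl2, a synaptotagmin-like partner of Rab27a, fell 1.9-fold, its mean going from 6.19 ± 0.218 to 5.26 ± 0.244 (limma adjusted p = 0.00487). Sytl3, Lamp2, Rab27a and Stxbp2 did not pass and stood at -0.34, -0.24, -0.23 and -0.24 on the log2 fold scale (limma adjusted p from 0.0766 to 0.165). Relative to Cd8a and Cd8b1 all 4 passed as lower (limma adjusted p = 0.0243, 0.0322, 0.0495 and 0.0447), which made 6 of the 19. With a variance trend 4 were lower and 1 higher. Over all genes these settings called 1882 and 1558 lower and 72 and 474 higher, against 713 and 156 as reported. The release factor Unc13d was at 6.86 ± 0.109 with PBS and 6.74 ± 0.154 with hBD-2 (limma adjusted p = 0.528). Without hBD-2 replicates 3 and 4 together the calls of Stx11 and Sytl2 were lost (limma adjusted p = 0.101 and 0.0781), as were those of Serpinb6a (0.108) and Cflar (0.125) described next. No omission of a single array ended these 4 calls.

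Besides Serpinb9, 10 related serpins were measured, of which 2 fell and none rose, against 3.66% and 0.8% of all genes. Serpinb6b read 9.65, 9.69, 9.43 and 9.54 on PBS replicates 1 to 4 and 8.94, 8.49, 8.27 and 8.37 on hBD-2 replicates 1 to 4, a fall of 2.08-fold with no overlap (difference -1.06 on the log2 scale, SE 0.138, limma adjusted p = 0.00199). Its relative Serpinb6a fell 1.61-fold (limma adjusted p = 0.00733). The mouse paralogs of Serpinb9 did not pass: Serpinb9b, for example, was at 5.55 ± 0.359 with PBS and 5.61 ± 0.175 with hBD-2 (limma adjusted p = 0.86), and 4 of the 10 serpins lay below the lower quartile on every array. Cross-hybridisation of probes among these near-identical paralogs was not tested.

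Regulators of the cytotoxic programme were mostly not past the threshold, with a pair of exceptions that held under every alternative and omission run. Of 16 measured transcription factors and cytokine receptors, 2 fell and none rose, against 3.66% and 0.8% of all genes. Their median log2 fold change was -0.19. Prdm1 (Blimp-1), a factor of terminal effector cells, read 5.81, 5.77, 5.34 and 5.81 on PBS replicates 1 to 4 and 3.79, 4.64, 4.53 and 4.08 on hBD-2 replicates 1 to 4, a fall of 2.68-fold (difference -1.42 on the log2 scale, SE 0.183, limma adjusted p = 0.00183). Id2, an inhibitor of E proteins that is high in effector CD8 cells, fell 1.67-fold, its mean going from 9.44 ± 0.0712 to 8.70 ± 0.0677 (limma adjusted p = 0.00105). Of the factors that can bind the T-box and RUNX letters, 3 were on the list, and none of these passed. T-bet (Tbx21) was at 7.32 ± 0.0952 with PBS and 7.09 ± 0.173 with hBD-2 (limma adjusted p = 0.23), Eomes at 8.91 ± 0.136 with PBS and 8.69 ± 0.143 with hBD-2 (0.239) and Runx3 at 10.45 ± 0.106 with PBS and 10.56 ± 0.173 with hBD-2 (0.598). Irf4, Il2rb and Stat5a gave log2 fold changes of -0.52, -0.25 and -0.24, each short of the threshold (limma adjusted p = 0.0928, 0.155 and 0.177). All 3 passed as lower relative to Cd8a and Cd8b1 (limma adjusted p = 0.0354, 0.0424 and 0.0478), which made 5 of the 16, and Irf4 also without hBD-2 replicate 1 (0.0425). With a variance trend 4 of the 16 were lower. Among all genes, 1882 were lower relative to Cd8a and Cd8b1 and 1558 with a variance trend, against 713 as reported.

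Of 8 measured genes of the death receptor pathway that Fas ligand feeds, 1 fell and none rose, against 3.66% and 0.8% of all genes. Cflar, which encodes the caspase-8 inhibitor c-FLIP, fell 1.48-fold, its mean going from 8.51 ± 0.0613 to 7.95 ± 0.181 (limma adjusted p = 0.0127). The death ligand TRAIL (Tnfsf10) stood at -0.55 and its receptor Tnfrsf10b at 0.44 in log2 fold change (limma adjusted p = 0.0649 and 0.0711). Tnfsf10 passed as lower relative to Cd8a and Cd8b1 (limma adjusted p = 0.0199) and without PBS replicate 2 (0.0433), and Tnfrsf10b as higher with quantile normalization repeated (0.0376), with cyclic loess (0.0451) and after removal of the trend with level (0.0421). With dim genes left out or a variance trend both passed, which made 2 lower and 1 higher of the 8. Over the genes tested, these settings called 1192 and 1558 lower and 349 and 474 higher, against 713 and 156 as reported. Without hBD-2 replicates 3 and 4 together none of the 8 passed. The receptor Fas was at 7.56 ± 0.0759 with PBS and 7.57 ± 0.292 with hBD-2, and Bid and Casp8 had log2 fold changes of -0.30 and -0.18.

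**Figure D3:**
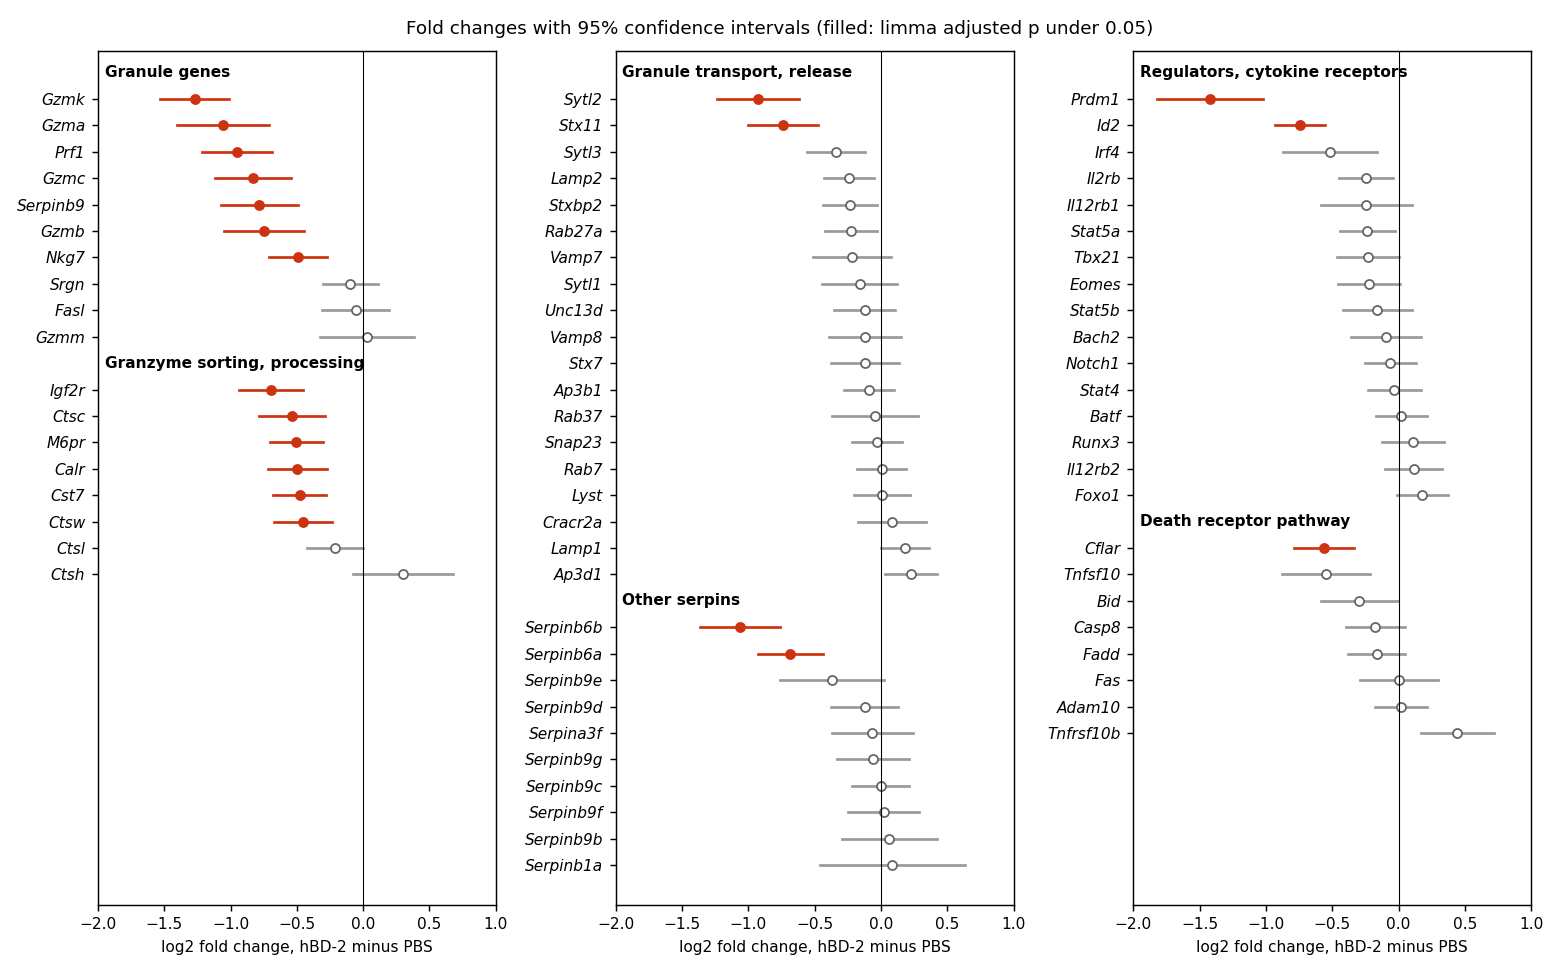
Log2 fold changes (hBD-2 minus PBS) with 95% confidence intervals from limma for the 10 granule genes and the measured genes of 5 related lists, filled red where the adjusted p was under 0.05. Falls past the threshold number 7 of 10 granule genes and 6 of 8 sorting and processing genes, against 2 of 19 transport and release genes, 2 of 10 other serpins, 2 of 16 regulators and 1 of 8 death receptor genes. No gene shown rose past the threshold. Over all genes 3.66% fell. The lists were chosen with earlier results of these data known, which limits comparison between them.

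The makeup of the cells was viewed through markers. The T cell label was borne out by the defining genes: Cd3d, Cd3e and Cd3g lay between the percentiles 98.5 and 99.6 of mean level, and Cd8a, Cd8b1 and Cd4 were all bright. The mean of Cd8a and Cd8b1 was 10.85 to 10.95 on the PBS arrays and 10.98 to 11.03 on the hBD-2 arrays, a difference of 0.11 in the direction opposite to the falling granule genes (p = 0.0286 by a two-sided exact permutation test, n = 4 a group). Cd8a was at 10.71 ± 0.041 with PBS and 10.83 ± 0.0417 with hBD-2, Cd8b1 at 11.08 ± 0.0776 with PBS and 11.17 ± 0.0281 with hBD-2 and Cd4 at 9.77 ± 0.0989 with PBS and 9.81 ± 0.147 with hBD-2, none of them past the limma threshold. Expressed relative to the mean of Cd8a and Cd8b1, which moves the median log2 fold change of all genes from 0.02 to -0.09, the same 7 granule genes fell, with log2 fold changes from -1.37 (Gzmk) to -0.60 (Nkg7). Relative to the mean of Cd3d, Cd3e and Cd3g the 7 fell too, from -1.22 (Gzmk) to -0.45 (Nkg7).

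Natural killer (NK) cells also make granzymes and perforin. The mean of 14 measured NK list genes was 4.85 to 4.93 on the PBS arrays and 4.57 to 4.73 on the hBD-2 arrays (p = 0.0286 by a two-sided exact permutation test, n = 4 a group). Within the list 1 gene fell, where 3.66% of all genes did. It was Klrc1, the inhibitory receptor chain NKG2A, which activated CD8 T cells also carry. Klrc1 read 7.47, 7.52, 7.34 and 7.41 on PBS replicates 1 to 4 and 6.61, 6.51, 6.34 and 6.49 on hBD-2 replicates 1 to 4 (fall of 1.93-fold, limma adjusted p = 0.00045). Klre1, a receptor of NK cells, was at 5.32 ± 0.4 with PBS and 4.68 ± 0.299 with hBD-2, and Klrk1, the activating receptor NKG2D that CD8 T cells also carry, at 6.81 ± 0.198 with PBS and 6.41 ± 0.149 with hBD-2 (limma adjusted p = 0.09 and 0.0797). Both passed as lower relative to Cd8a and Cd8b1 (0.0319 and 0.0267), which made 3 of the 14, and with a variance trend. Among all genes these settings called 1882 and 1558 lower, against 713 as reported. Klre1 also passed when PBS replicate 2 (0.0356) or hBD-2 replicate 1 (0.0466) was omitted, and Klrk1 without PBS replicate 3 (0.0376) or with dim genes left out (0.0404). Klrd1 went the other way, at 8.41 ± 0.138 with PBS and 8.55 ± 0.147 with hBD-2 (limma adjusted p = 0.486). Of the 14 genes 12 had a log2 fold change below 0, against 46.1% of all genes. The defining NK genes Ncr1 (2.97 ± 0.102 with PBS and 2.89 ± 0.227 with hBD-2) and Klrb1c (2.96 ± 0.157 with PBS and 3.01 ± 0.364 with hBD-2) lay below the arrays' lower quartiles on all 8 arrays, as did 4 of the 14 genes in all. Of 10 mast cell and basophil genes, a lineage in which Gzmb and Srgn can be found, 2 rose, against 0.8% of all genes. These were Cpa3 (1.98-fold, limma adjusted p = 0.0132, or 0.0977 without hBD-2 replicates 3 and 4 together) and Fcer1a (1.48-fold, 0.0323). The mean of the list was 4.27 to 4.41 on the PBS arrays and 4.49 to 4.76 on the hBD-2 arrays (p = 0.0286 by a two-sided exact permutation test, n = 4 a group). The call of Fcer1a was lost without PBS replicate 1, 2 or 4 or hBD-2 replicate 4 (limma adjusted p = 0.0846, 0.0546, 0.0829 and 0.0940), without hBD-2 replicates 3 and 4 together (0.182), with quantile normalization repeated (0.0537) and with equal medians and interquartile ranges (0.0539). Kit, the stem cell factor receptor that marks mast cells, went the other way. It read 6.64, 6.90, 6.59 and 6.44 on PBS replicates 1 to 4 and 5.67, 5.89, 6.64 and 5.70 on hBD-2 replicates 1 to 4 (difference -0.67 on the log2 scale, SE 0.194, limma adjusted p = 0.0744), with hBD-2 replicate 3 inside the PBS range and the other 3 below it. Kit passed as lower without hBD-2 replicate 3 (limma adjusted p = 0.00654), without hBD-2 replicates 3 and 4 together (0.0384), relative to Cd8a and Cd8b1 (0.0284), with dim genes left out (0.0432) and with a variance trend (0.0118). B cell markers were uneven within groups, their mean being 4.45 to 5.31 on the PBS arrays and 4.44 to 5.90 on the hBD-2 arrays, with replicates 2 and 4 the highest of each group, and none of 7 passed. Of 10 myeloid markers 1 fell, against 3.66% of all genes. This was Itgam (limma adjusted p = 0.0461), a call that held only without PBS replicate 1 among the 8 omissions of a single array, the others giving 0.0606 to 0.126. By two-sided exact permutation the mean of the CD4 markers gave p = 0.771, T cell markers 0.686, B cell markers 0.514 and myeloid markers 0.6. The mean of Cd3d, Cd3e and Cd3g gave 0.2. None of the permutation p-values of marker means was adjusted for the number of lists. The part of the marker shifts in the granule gene values was not tested.

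**Figure D4:**
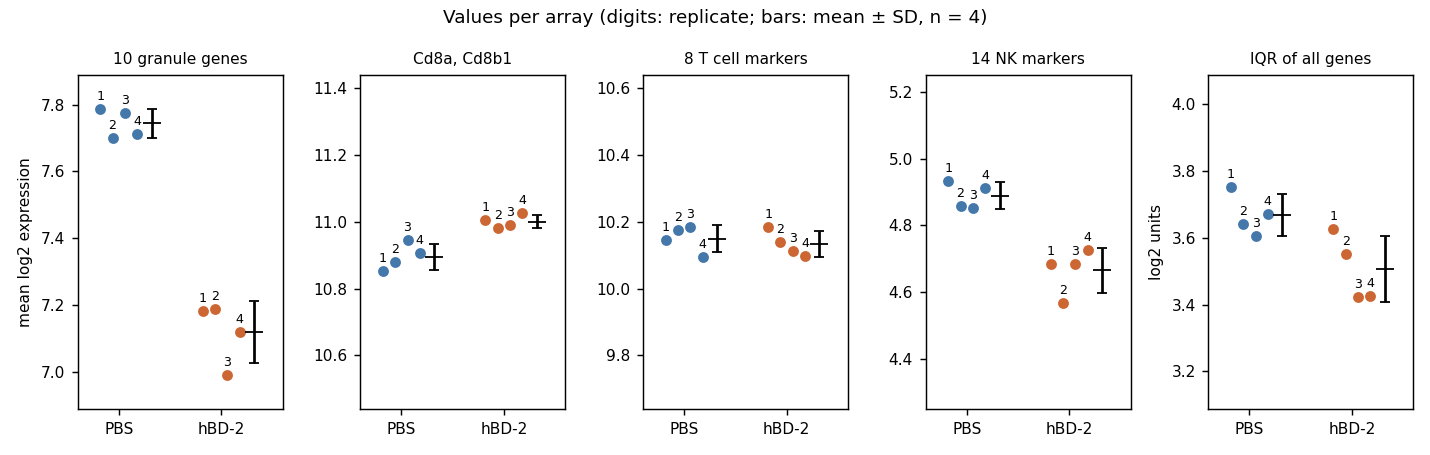
Mean log2 expression per array of the 10 granule genes, of Cd8a and Cd8b1, of 8 T cell markers and of 14 NK list genes, and the interquartile range (IQR) of all genes in log2 units, with digits for the replicate number and bars for mean ± SD (n = 4); each axis spans 1 log2 unit. The granule gene mean is 7.70 to 7.79 on the PBS arrays and 6.99 to 7.19 on the hBD-2 arrays, while the CD8 marker mean is slightly higher with hBD-2 and the T cell marker mean overlaps.

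Some of the hBD-2 arrays differed from the rest in their spread of values. The interquartile range of all genes was 3.60 to 3.75 on the PBS arrays and 3.42 to 3.63 on the hBD-2 arrays (p = 0.0571 by a two-sided exact permutation test, n = 4 a group), with hBD-2 replicates 3 and 4 the narrowest. Replicate 3 was also the lowest hBD-2 array for 8 of the 10 granule genes. By the same permutation test the array medians gave p = 0.229 and the lower quartiles p = 0.0857, without adjustment. Without hBD-2 replicates 3 and 4, which leaves 2 arrays in that group, Gzmk, Gzma and Prf1 passed (log2 fold changes -1.22, -1.07 and -0.96, limma adjusted p = 0.0125, 0.0397 and 0.0182). Gzmb, Gzmc, Serpinb9 and Nkg7 then stood at -0.52, -0.69, -0.59 and -0.38 on the log2 scale (limma adjusted p = 0.0762, 0.108, 0.107 and 0.190). Over all genes, 713 were lower and 156 higher, or 506 and 234 with quantile normalization repeated, 568 and 224 with cyclic loess, 526 and 231 with equal medians and interquartile ranges, 573 and 227 after removal of the trend with level, 420 and 196 relative to the CD3 genes and 1882 and 72 relative to the CD8 genes. The 7 granule genes fell under each of these except that Nkg7 did not pass with equal medians and interquartile ranges.

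**Figure D5:**
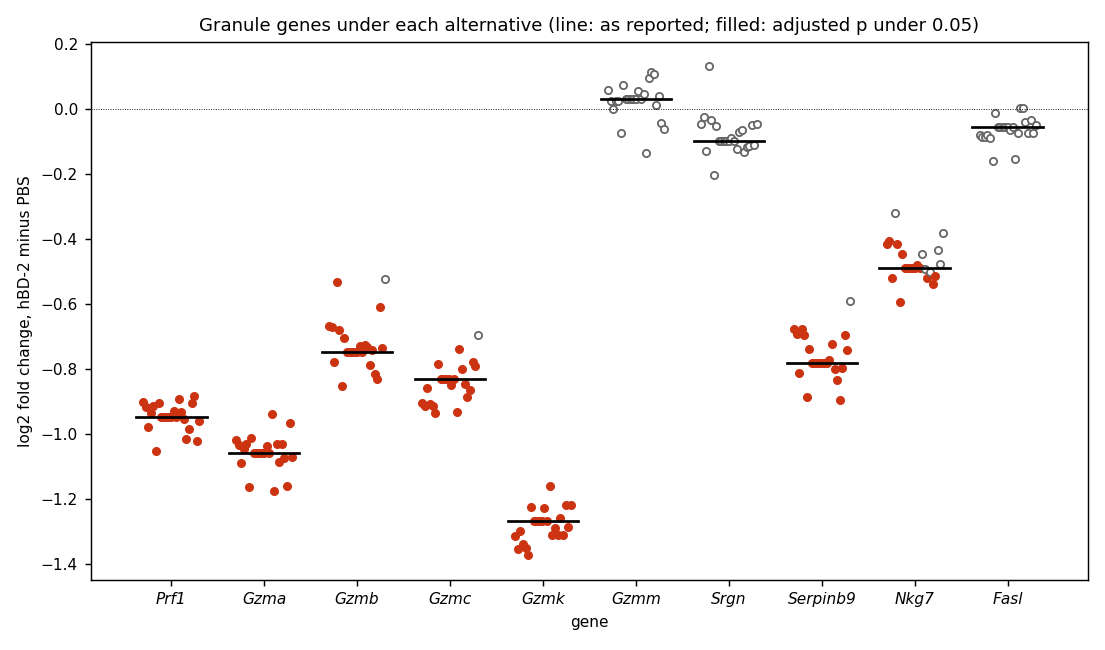
Log2 fold change (hBD-2 minus PBS) of each granule gene under each alternative processing or array omission (points, filled red where the limma adjusted p was under 0.05) and as reported (black line). The points of Prf1, Gzma and Gzmk are filled wherever they were tested, the others of the 7 falling genes keep their sign, and those of Gzmm, Srgn and Fasl are unfilled and lie on both sides of 0.

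The genes whose profile was most like that of a granule gene were sought among 11318 named genes of mean level no lower than the percentile 40, by Pearson correlation over the 8 arrays as a measure of likeness only. The arrays form 2 groups, so the difference between them enters the measure. Mif (r = 0.997), Crmp1 (0.995) and Dpagt1 (0.995) were most like Gzmb. Trappc1 (0.990), Lgals3bp (0.983) and Dazap2 (0.982) were most like Prf1, and Calm2 (0.992), Acly (0.988) and Ccr2 (0.987) most like Gzmk. Of these, Mif was at 11.18 ± 0.0450 with PBS and 10.71 ± 0.168 with hBD-2 (limma adjusted p = 0.0261), and Calm2 at 9.86 ± 0.0179 and 9.73 ± 0.0201 (0.348). A like profile thus came with differences of unlike size, that of Calm2 short of the threshold. Taken as deviations from the group means, the correlations with Gzmb were 0.993 (Mif), 0.977 (Crmp1) and 0.975 (Dpagt1). Those with Prf1 were 0.936, 0.835 and 0.796 and those with Gzmk 0.853, 0.801 and 0.817, in the order named.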

How the data were processed

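RNA of 8 samples of activated mouse T cells was measured on 1-colour Affymetrix whole-transcript arrays. The authors deposited log2 expression values of 22203 probe sets, made with oligo and RMA per the submitters' processing notes, with versions, settings and annotation build not given in the sources used here. Platform annotation named 1 gene for 19572 probe sets and 2631 stayed unnamed. Where a gene had more than 1 probe set (55 genes) the brightest on average was kept, which left 19505 genes. The 4 hBD-2 arrays were compared with the 4 PBS arrays by lmFit and eBayes of limma 3.58.1 (R 4.3.3) without a block. Two-sided p-values were adjusted by Benjamini-Hochberg across all genes, with a threshold of 0.05, and the fit was tested on simulated data. Values per array were compared by exact permutation, with p-values unadjusted except for the 5 within-array differences. Nothing says that arrays came from separate mice, so p-values measure the spread between these samples, and the number of arrays limits the precision. The 10 genes and all lists were chosen with earlier results of these data known. Named are the 10 genes, list genes past the threshold, up to 4 more of each list by p, 3 most similar genes each for Gzmb, Prf1 and Gzmk, and defining T and NK markers. Unc13d, Serpinb9b, Eomes, Runx3, Fas, Klrc1, Klrd1, Klre1, Klrk1, Kit, Cpa3, Fcer1a and Itgam were added after their values were seen. List genes without a match were not analysed here, nor were erythroid markers, of which 2 of 6 matched. Alternatives were other normalizations, reference genes, filters, variance models, a replicate block and the omission of arrays. Promoter windows came from RefSeq (GRCm38.p6) and covered all 10 genes.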

Additional observations from a re-analysis of the deposited data

Results flagged for a closer look

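Among the 20 sets of 4 values formed by the 10 granule genes in the 2 groups, 2 held a value far from the other 3, where chance gives about 1 in 20. PBS replicate 1 read 5.56 for Gzmk, against 5.17 for the next highest PBS array, a gap of 0.847 of the whole range, and without it the log2 fold change was -1.16 (limma adjusted p = 0.000785). The second was hBD-2 replicate 3, which read 11.07 for Srgn, against 11.26 for the next lowest hBD-2 array, a gap of 0.952 of the range. Without it the log2 fold change was -0.05 (limma adjusted p = 0.830).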

How the results depend on the processing

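Of the 10 granule genes, 7 passed as reported, and 5 to 7 passed in every alternative but the omission of hBD-2 replicates 3 and 4 together, which left 3. The filter on dim genes left Gzmc and Gzmk untested and 5 of the other 8 passed. Leaving out single arrays gave 6 to 7 granule genes and 312 to 1396 changed genes, against 869 as reported. Without hBD-2 replicates 3 and 4 together 128 genes changed. Changed genes numbered 1954 relative to Cd8a and Cd8b1, 1541 with dim genes left out, 2032 with a variance trend, and 345 with a fold change of at least 1.5. Over omissions of single arrays the log2 fold change of Gzmm ran from -0.14 to 0.12, below 0 when PBS replicate 2 or hBD-2 replicate 4 was omitted, and that of Fasl from -0.15 to 0.0048, above 0 when PBS replicate 3 or 4 was omitted. Signs also turned for Gzmm relative to Cd8a and Cd8b1 (-0.0745) and with hBD-2 replicates 3 and 4 omitted (-0.0621), and for Srgn with equal medians and interquartile ranges (0.13). The cause was not tested. The 5 within-array differences ran from 0.46 to 1.43 over the alternatives that gave them, but a shift of a whole array or another variance model cannot move them, and those with Gzmc and Gzmk were not computed with dim genes left out. With the replicate number as a replicate block 7 granule genes and 857 genes passed, and it changed no granule gene's call. Among the named list genes it ended the call of Fcer1a (0.0575) and added Klrk1 (0.0462), Tnfsf10 (0.0233) and Tnfrsf10b (0.0486). Same-numbered arrays deviated together with correlations of 0.181, 0.0585, 0.159 and 0.00482, and 2 of 4 numbers correlated best with their own. The mean of the B cell markers was highest on replicates 2 and 4 of both groups. These values do not settle whether the numbers are pairs. Because the labels state no pairs, the numbers served as a block only in this alternative. Signal near the floor limits Gzmk, Gzmc and the dim granzymes.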

Other observations

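Other genes beside the granule genes were read from the gene table of GRCm38.p6, by position only. Next to Gzmm on chromosome 10 lies Bsg, which encodes basigin, a chaperone of lactate transporters. Bsg fell, from 11.50 ± 0.0694 with PBS to 10.68 ± 0.183 with hBD-2 (log2 fold change -0.81, limma adjusted p = 0.00199), while Cdc34 on the other side of Gzmm was at 7.43 ± 0.173 and 7.30 ± 0.124 (limma adjusted p = 0.522). On chromosome 13 the genes flanking the Gzma and Gzmk pair, Gpx8 and Esm1, stood at 0.15 and 0.14 on the log2 scale (limma adjusted p = 0.421 and 0.591). On chromosome 14 Gzmf, the neighbour of Gzmc, stood at 0.02 and Atp12a, the other neighbour of Gzmb, at 0.17 (limma adjusted p = 0.947 and 0.344). Beside Prf1, Adamts14 and Pald1 stood at 0.29 and 0.31 (limma adjusted p = 0.139 and 0.178). Gpx8, Esm1, Gzmf and Atp12a were dim, with PBS means of 3.86, 4.09, 3.99 and 3.15, so a fall of these could not be well measured.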
